A study of Mus musculus with 8 samples.

Results

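Eph receptors and their ephrin ligands were examined in sorted skin stem cells of Msx2-KO and WT mice. The 10 genes described are the ephrins Efna1, Efna4, Efna5, Efnb1 and Efnb2 and the receptors Epha1, Epha2, Epha4, Ephb4 and Ephb6, of 24755 genes listed in either of 2 expression tables. They were found by gene symbol, and all 10 have a row in both tables. The 10 were chosen by name with readings of these libraries already known, and which measured values they were selected on is not recorded. Their levels and differences are therefore given as a description, and nothing is supported with them. The other 12 Eph and ephrin genes of the mouse were looked up in the same tables, so that 22 genes of the family were considered in all.

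Eph receptors are the largest family of receptor tyrosine kinases, and they bind ephrins that are held on the surface of neighbouring cells. A-class ephrins are attached to the membrane by a lipid anchor and mostly bind EphA receptors, whereas B-class ephrins span the membrane and mostly bind EphB receptors, and both partners can signal into their own cell. In skin the family is known for guiding cell sorting, adhesion and positioning of keratinocytes, and EphA2 with its ligand ephrin-A1 is known for limiting growth and promoting differentiation of keratinocytes.

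The data were bulk RNA-seq of cells sorted from dorsal skin in telogen, the resting phase of the hair cycle, and 8 libraries were examined in 4 groups of 2. Hair follicle stem cells (HFSCs) were sorted as CD34+ CD49f+ Sca-1- cells and epidermal stem cells (EpdSCs, which the labels name epidermal progenitors) as CD34- CD49f+ Sca-1+ cells. WT HFSCs came from mice of 2 months, and Msx2-KO HFSCs, WT EpdSCs and Msx2-KO EpdSCs came from mice of 6 months, so that age and genotype cannot be told apart in HFSCs. WT mice were C57BL/6J animals matched by hair cycle. Msx2-KO mice are homozygous, in every tissue, for an allele with a pMC1-neo cassette placed before exon 2 of Msx2, a homeobox transcription factor of the follicle. Library names follow a separate prefix or run of numbers for each genotype, in HFSCs and in EpdSCs, and what the names stand for is not stated. Anything that goes with these names cannot be told apart from genotype in either cell type. The labels do not say that the replicates are separate animals, so the errors given measure only the spread between these libraries, which may be technical.

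Totals ran from 3132974 to 11016659 estimated counts in the HFSC libraries and from 15214241 to 21092705 in the EpdSC libraries. Estimated counts of Msx2 were 53 and 7 in WT HFSCs and 40 and 18 in Msx2-KO HFSCs, and normalized counts were 58.5 and 85.4 in WT EpdSCs and 150 and 22.2 in Msx2-KO EpdSCs. Since the counts of the targeted gene were not lower in both libraries labelled Msx2-KO of either cell type, each direction below rests on the labels. Mitochondrial ribosomal RNA took 8.94% and 36.3% of counts in WT HFSCs against 49.4% and 53.2% in Msx2-KO HFSCs. Genes at 1 count or more numbered 22447 and 19595 in WT HFSCs against 11409 and 14251 in Msx2-KO HFSCs. Msx2-KO EpdSC replicate 1 stood apart from the other EpdSC libraries, with 0.0730% of counts in mitochondrial ribosomal RNA against 6.18% to 23.5% and with 12719 genes at 1 count or more against 15165 to 15935. Cd34, the surface marker of the HFSC sort, was at 491 and 436 CPM in WT HFSCs and 177 and 144 CPM in Msx2-KO HFSCs, where CPM is counts per 1e+06 counts of the library, scaled by edgeR's TMM factors. It has no row in the EpdSC table, where Krt5 and Krt14, keratins of basal keratinocytes, were at 97473 normalized counts or more and 71869 or more.

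Promoter sequence is shown for Efna1 and Efna4, which lie on either side of Efna3 and differed in the same direction as each other within each cell type, and for Efnb1 and Ephb6, whose EpdSC levels differed most. Each sequence is the 250 bases before the RefSeq transcript start on build GRCm38.p6, written 5′ to 3′ on the strand of the gene, with every CG dinucleotide in capitals.
Efna1, chr3:89280952-89281201, minus strand: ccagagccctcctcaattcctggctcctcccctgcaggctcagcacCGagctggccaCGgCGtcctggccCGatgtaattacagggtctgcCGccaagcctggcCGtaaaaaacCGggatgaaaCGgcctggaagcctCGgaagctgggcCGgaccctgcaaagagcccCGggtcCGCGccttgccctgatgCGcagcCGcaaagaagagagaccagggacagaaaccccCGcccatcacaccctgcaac
Efna4, chr3:89338029-89338278, minus strand: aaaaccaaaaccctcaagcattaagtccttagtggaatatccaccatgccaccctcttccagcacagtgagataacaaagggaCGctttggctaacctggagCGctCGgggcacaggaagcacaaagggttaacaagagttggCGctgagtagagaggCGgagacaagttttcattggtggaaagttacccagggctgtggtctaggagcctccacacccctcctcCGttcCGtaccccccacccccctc
Efnb1, chrX:99135811-99136060, plus strand: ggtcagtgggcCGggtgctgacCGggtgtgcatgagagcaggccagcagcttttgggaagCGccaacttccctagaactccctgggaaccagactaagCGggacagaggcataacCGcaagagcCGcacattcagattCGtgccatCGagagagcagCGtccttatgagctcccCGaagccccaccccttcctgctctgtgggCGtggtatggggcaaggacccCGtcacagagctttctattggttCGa
Ephb6, chr6:41605261-41605510, plus strand: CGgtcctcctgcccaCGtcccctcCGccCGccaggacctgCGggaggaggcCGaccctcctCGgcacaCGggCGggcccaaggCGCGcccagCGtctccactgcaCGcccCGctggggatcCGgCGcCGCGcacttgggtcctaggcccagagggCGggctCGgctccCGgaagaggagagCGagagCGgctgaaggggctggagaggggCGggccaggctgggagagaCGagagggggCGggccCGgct
These windows hold 16 CG dinucleotides at Efna1, 7 at Efna4, 13 at Efnb1 and 27 at Ephb6. All 10 genes matched a RefSeq start, in 11 windows because Efna1 has 2 starts, and CG counts ran from 7 to 32 over the 11 windows against a median of 6 (quartiles 2 and 16) over 32851 windows of the mouse genome. The letters TAATTG, a core recognised by Msx homeodomain proteins, were searched on both strands, which also finds the reverse complement CAATTA. They were in 0 of the 11 windows and in 7.17% of all windows, which says only that these letters are not within these 250 bases.

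In HFSCs the A-class ephrins among the 10 genes were lower in the libraries labelled Msx2-KO, and Efnb2 was higher. Efna1, the ligand of EphA2, lies on chromosome 3 from 89271733 to 89281142 of GRCm38 and was at 29.8 and 25.9 CPM in WT HFSC replicates 1 and 2, against 11.5 and 4.67 CPM in Msx2-KO HFSC replicates 1 and 2. Both Msx2-KO libraries lay below both WT libraries, with a mean of 8.11 ± 4.86 CPM (SD, n = 2) against 27.8 ± 2.76 CPM (SD, n = 2), a ratio of 3.43. Its log2 fold change, -1.77 with all libraries, was -2.60 without Msx2-KO replicate 1 and -1.28 without Msx2-KO replicate 2. Efna4, a further A-class ligand on chromosome 3 from 89333390 to 89338028, was at 9.23 and 10.9 CPM in WT against 1.63 and 2.12 CPM in Msx2-KO. These are low levels, resting on 69.2 and 33.7 estimated counts in WT against 15 and 10 in Msx2-KO, and the groups did not overlap. Because bulk RNA was measured, fewer cells of a type and less RNA per cell cannot be told apart here or in any later result.

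Efna5, an A-class ligand best known from axon guidance and located on chromosome 17 from 62604184 to 62881317, was at 106 and 128 CPM in WT HFSCs and 41.7 and 38.6 CPM in Msx2-KO HFSCs. Its groups were far apart relative to their spread, at 117 ± 15.1 CPM (SD, n = 2) and 40.2 ± 2.18 CPM (SD, n = 2). Efnb2, the transmembrane ligand of EphB4 on chromosome 8 from 8617434 to 8661242, was at 347 and 295 CPM in WT against 657 and 455 CPM in Msx2-KO. Both Msx2-KO libraries were above both WT libraries, although the spread within Msx2-KO (556 ± 143 CPM, SD, n = 2) was wider than in WT (321 ± 36.1 CPM, SD, n = 2). Efnb1, the X-linked B-class ligand (chromosome X, 99136130 to 99148991), was at 42.2 and 56.9 CPM in WT against 62.8 and 47.3 CPM in Msx2-KO, and the groups overlapped.

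Among the HFSC receptors, Ephb4 alone of the 5 had groups that did not overlap, where 51.1% of all genes had groups apart. Ephb4 (chromosome 5, 137350109 to 137378669), which pairs with ephrin-B2, was at 95.7 and 70.1 CPM in WT against 44.9 and 47.5 CPM in Msx2-KO. Its annotated exons share 33 bases with Zan on the opposite strand, and whether the counting used strand is not stated. Ephb6 (chromosome 6, 41605482 to 41620509), a receptor without kinase activity, was at 164 and 209 CPM in WT against 238 and 161 CPM in Msx2-KO, so that the Msx2-KO libraries lay on both sides of WT. Epha1, an epithelial receptor, was at 37.5 and 44.2 CPM in WT against 50.8 and 40.1 CPM in Msx2-KO. Epha2 was at 27.6 and 35.9 CPM in WT against 35.0 and 53.1 CPM in Msx2-KO, and Epha4, a receptor that binds ligands of both classes, was at 61.0 and 76.6 CPM in WT against 47.1 and 77.3 CPM in Msx2-KO. For Epha1, Epha2 and Epha4 the groups overlapped. Reads of Epha1 are uncertain in the same way as those of Ephb4, since 236 exon bases lie opposite Zyx.

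**Figure D1:**
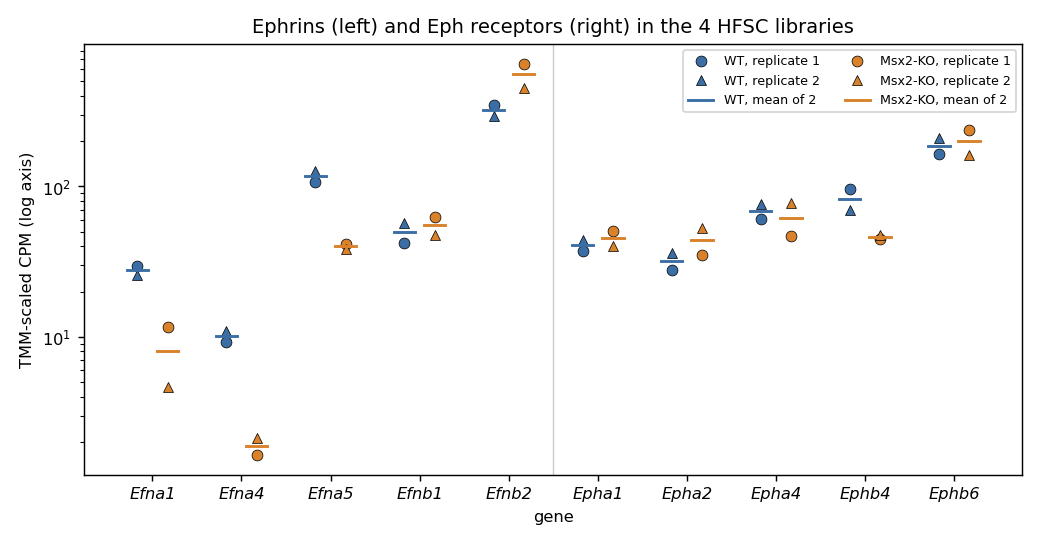
Levels of the 5 ephrins and 5 Eph receptors in the 4 HFSC libraries, in TMM-scaled CPM on a log axis, with a point for each library and a bar at the mean of 2. Both Msx2-KO points lie below both WT points for Efna1, Efna4, Efna5 and Ephb4 and above them for Efnb2.

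Fitted over the 14422 HFSC genes tested, the log2 fold change (Msx2-KO minus WT, with its standard error) was -1.77 ± 0.70 for Efna1, -2.42 ± 1.10 for Efna4, -1.54 ± 0.25 for Efna5, 0.79 ± 0.30 for Efnb2 and -0.85 ± 0.28 for Ephb4. It lay between -0.15 and 0.47 for the other 5 genes. Calls required an adjusted p (Benjamini-Hochberg) below 0.05 together with a more than 2-fold difference. With edgeR's quasi-likelihood test 0 of the 10 genes were called, where 0.0% of all genes were called, and the smallest adjusted p among the 10 was 0.143, for Efna5. At an unadjusted p under 0.05 stood 2 of the 10 genes against 18.1% of all genes, while DESeq2 called 1 (Efna5) against 4.78% and limma-trend called 1 (Efna5) against 9.76%. Groups did not overlap for 5 of the 10 genes, 1 higher and 4 lower in Msx2-KO, against 51.1% of all genes, 17.5% higher and 33.5% lower. Fitted differences were below 0 for 5 of the 10 against 54.6% of all genes, and their median was -0.02 beside -0.14 over all genes. The directions of Efna1, Efna4, Efna5 and Ephb4 held at every setting tried, whereas Efnb2 was at -0.066 when libraries were scaled to their totals, a scaling that put the median of all genes at -1.002.

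Markers of other cells moved with the same HFSC groups. All 7 HFSC markers looked up were in the table, and they summed to 6367 and 6110 CPM in WT against 3353 and 3602 CPM in Msx2-KO. The 8 suprabasal markers, all in the table, summed to 192 and 217 CPM in WT against 812 and 3153 CPM in Msx2-KO. Sbsn made most of the WT sums, at 112 and 170 CPM, and overlapped between groups, at 61.9 and 156 CPM in Msx2-KO. Lor overlapped too, at 0 in both WT libraries against 0 and 21.9 CPM. The 5 of 6 EpdSC markers in the table summed to 4249 and 4510 CPM in WT against 3296.5 and 2990 CPM in Msx2-KO. Of these, Krt5, Itga6 and Itgb4 were lower in both Msx2-KO libraries, Krt14 was higher and Trp63 overlapped. Sebaceous markers, 4 of 5 in the table, were at 35.9 and 34.5 CPM against 1274 and 934 CPM, of which Scd1 made 976 and 760 CPM in Msx2-KO. Fibroblast markers (3 of 7 in the table) summed to 47.8 and 64.0 CPM in WT against 27.0 and 12.3 CPM in Msx2-KO, with Pdgfra at 0 in both Msx2-KO libraries. Pericyte and smooth muscle markers (4 of 6) summed to 350 and 346 CPM against 167 and 131 CPM, nearly all of it Cspg4, with Rgs5, Pdgfrb and Myh11 at 0 in both Msx2-KO libraries. Immune markers (3 of 6) summed to 4.85 to 20.2 CPM and melanocyte markers (3 of 4) to 14.2 to 48.8 CPM over the 4 libraries. Endothelial cells carry both Efnb2 and Ephb4, and the 6 of 8 endothelial markers in the table summed to 22.3 and 7.81 CPM in WT against 6.10 and 4.03 CPM in Msx2-KO. Tek, Vwf and Esam were at 0 in both Msx2-KO libraries, where Tek and Esam rested on 3 to 7 estimated counts in WT. Kdr overlapped between groups, at 2.94 and 1.29 CPM in WT against 6.10 and 0 CPM in Msx2-KO. It made the whole sum of Msx2-KO replicate 1. As given above, fewer genes of any kind reached 1 count in the Msx2-KO HFSC libraries than in WT. The part of these cells in the ephrin and Eph levels was not tested.

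In EpdSCs the ephrins Efna1, Efna4 and Efnb1 were higher in the libraries labelled Msx2-KO, and Ephb6 and Epha2 were lower. The EpdSC table holds counts that the authors had already normalized, so its values cannot be set against the CPM of HFSCs. Efnb1 was at 1206 and 1505 normalized counts in WT EpdSC replicates 1 and 2, and at 42576 and 7256 in Msx2-KO EpdSC replicates 1 and 2. Both Msx2-KO libraries were far above WT, but they also differed widely from each other (24916 ± 24975, SD, n = 2, against 1355 ± 212, SD, n = 2). Efna1 was at 1297 and 1099 normalized counts in WT against 4333 and 2223 in Msx2-KO, a ratio of means of 2.74. Efna4 was at 206 and 119 in WT against 904 and 323 in Msx2-KO, a ratio of 3.78. For these 3 ligands the higher of the Msx2-KO values was that of replicate 1, the library that stood apart, and the groups did not overlap.

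For the remaining ligands the fitted differences were smaller. Efnb2 was at 1775.3 and 2649 normalized counts in WT EpdSCs and 1772.6 and 832 in Msx2-KO EpdSCs, so that the groups stayed apart by less than 3 normalized counts. Efna5 was at 479.8 and 508 in WT against 278 and 709.7 in Msx2-KO, with means of 494 in both groups. Its Msx2-KO libraries lay on opposite sides of WT.

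All 5 receptors had negative fitted differences in EpdSCs, and 4 of them had groups that did not overlap. Over all genes, 59.7% had negative fitted differences and 72.3% had groups apart, 44.5% with Msx2-KO lower. Ephb6 was at 4939 and 4588 normalized counts in WT against 1.27 and 536 in Msx2-KO. The value of 1.27 stands for 1 estimated count in Msx2-KO replicate 1 (exact Poisson 95% interval 0.0253 to 5.57 counts, counting error only), and the WT mean was 3741 times that value, with a counting interval of 671 to 147750. Such a ratio belongs to a single library, since Msx2-KO replicate 2 had 795 estimated counts of Ephb6.

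Epha2, the receptor of ephrin-A1 (chromosome 4, 141301240 to 141329384), was at 999 and 1403 normalized counts in WT against 448 and 274 in Msx2-KO. Both Msx2-KO libraries lay below both WT libraries, at 361 ± 123 (SD, n = 2) against 1201 ± 286 (SD, n = 2) in WT. Epha1 was at 936 and 923 in WT against 801 and 681 in Msx2-KO. Ephb4 was at 1280.3 and 1375 in WT against 1053 and 879 in Msx2-KO, and for both of these receptors the gap between groups was small beside their level. Epha4 was at 1377 and 1267 in WT against 2021 and 432 in Msx2-KO, and its groups overlapped.

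**Figure D2:**
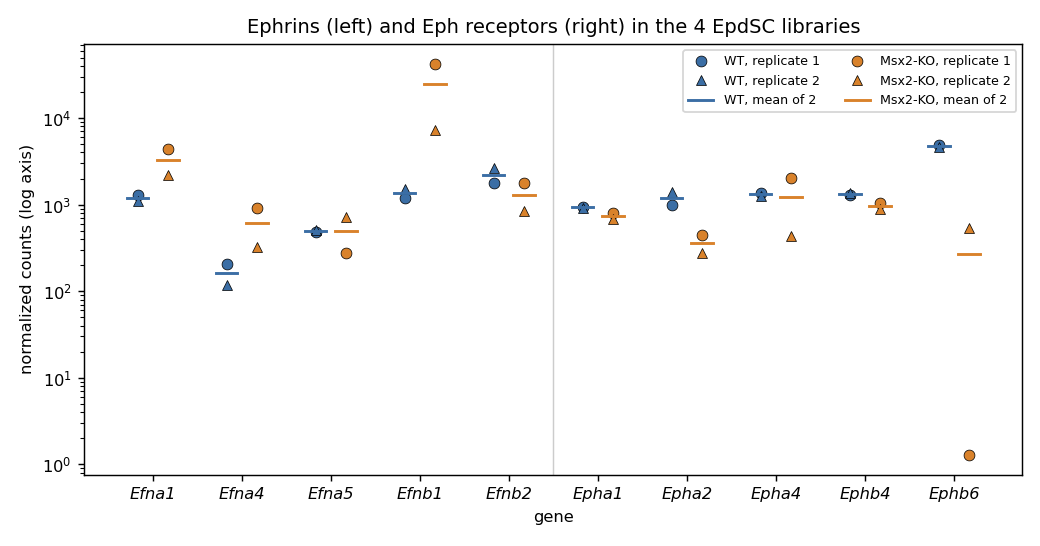
Levels of the 5 ephrins and 5 Eph receptors in the 4 EpdSC libraries, in the authors' normalized counts on a log axis, with a point for each library and a bar at the mean of 2. Ephb6 in Msx2-KO replicate 1 sits at 1.27, far below its WT points of 4939 and 4588, and Efnb1 in the same library sits at 42576.

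Fitted with limma on log2(value + 1) over 16231 EpdSC genes, the log2 fold change (Msx2-KO minus WT) was 3.70 ± 1.04 (SE) for Efnb1, 1.38 ± 0.58 for Efna1, 1.78 ± 0.76 for Efna4, -1.75 ± 0.55 for Epha2 and -7.09 ± 2.89 for Ephb6. The fitted value of Ephb6 depends on the pseudocount and was -5.93 with 10 in place of 1. None of the 10 genes was called by limma (0 of 10), where 9.35% of all genes were called, 1.57% higher and 7.78% lower, and the smallest adjusted p (Benjamini-Hochberg) was 0.103, for Efnb1. At an unadjusted p under 0.05 stood 2 of the 10 against 35.3% of all genes, and edgeR on estimated counts recovered from the table called 0 of the 10 and 0.0% of all genes. Groups did not overlap for 8 of the 10 genes, 3 higher and 5 lower in Msx2-KO, against 72.3% of all genes, 27.8% higher and 44.5% lower. Fitted differences were below 0 for 7 of the 10 genes against 59.7% of all genes. The 5 ephrins had a median log2 fold change of 1.38 and the 5 receptors of -0.50, beside -0.64 over all genes.

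Without Msx2-KO EpdSC replicate 1 the log2 fold change was 2.43 for Efnb1, 0.90 for Efna1, 1.04 for Efna4, -2.11 for Epha2 and -3.15 for Ephb6, each in the same direction. Without Msx2-KO EpdSC replicate 2 it was 4.98 for Efnb1, 1.86 for Efna1, 2.52 for Efna4, -1.40 for Epha2 and -11.03 for Ephb6.

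**Figure D3:**
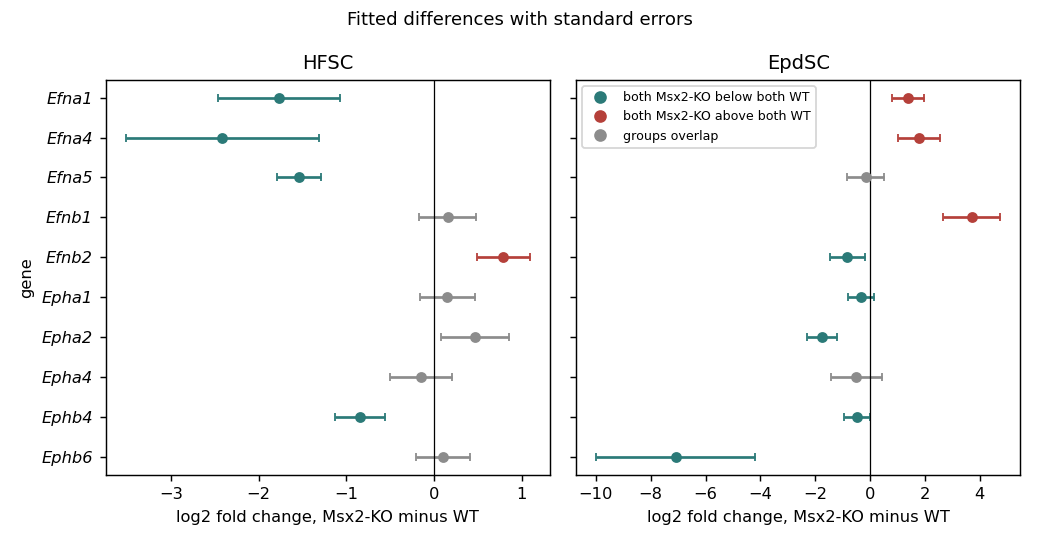
Fitted log2 fold changes, Msx2-KO minus WT, of the 10 genes in HFSCs (edgeR) and EpdSCs (limma on log2(value + 1)), each with a bar of 1 standard error on its own axis range. Points for Efna1 and Efna4 lie at -1.77 and -2.42 in HFSCs and at 1.38 and 1.78 in EpdSCs.

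Markers moved with the EpdSC groups as well. The 6 EpdSC markers, all in the table, summed to 199149 and 236085 normalized counts in WT against 646343 and 457771 in Msx2-KO, but they did not move alike. Krt14 was at 71869 and 84155 in WT against 392157 and 275191 in Msx2-KO, while Itgb4, an integrin of basal keratinocytes, was at 7432 and 11067 against 183 and 1148, and Trp63 overlapped between the groups. The 8 suprabasal markers summed to 299839 and 216564 in WT against 107407 and 82075 in Msx2-KO. Of these, Krt1, Krt10, Ivl, Sbsn and Flg were lower in both Msx2-KO libraries, whereas Dsg1a, Krtdap and Lor overlapped between groups. Dsg1a was at 27775 and 23105 in WT against 64734 and 9860 in Msx2-KO. The 6 of 7 HFSC markers in the table summed to 81523 and 98366 against 233541 and 180400, mostly Krt15. Sebaceous markers, 4 of 5 in the table, summed to 3881 and 4674 in WT against 23827 and 10281 in Msx2-KO, of which Scd1 made 23465 and 9990.0, whereas Plin2 was at 218.8 and 136 against 7.64 and 78.9. Immune markers (4 of 6 in the table) summed to 536 and 41.7 in WT against 0 and 2.696 in Msx2-KO, with Ptprc, Cd3e and Cd207 at 0 in both Msx2-KO libraries. Pericyte and smooth muscle markers (3 of 6) summed to 565 and 856 against 132 and 139. Cspg4 made most of the WT sums, at 516 and 829 against 5.09 and 121 in Msx2-KO. Tagln was at 24.6 and 3.89 against 0 and 1.49, whereas Acta2 overlapped between groups, at 24.9 and 22.8 against 127 and 16.2. Endothelial markers had 2 of 8 in the table, at sums of 36.8 and 26.6 in WT against 24.2 and 20.9 in Msx2-KO. The sums hide opposite directions, each with groups apart. Pecam1 was at 8.67 and 4.74 in WT against 24.2 and 18.2 in Msx2-KO, whereas Vwf was at 28.2 and 21.8 against 0 and 2.696. Fibroblast markers had 0 of 7 rows in the table and melanocyte markers 0 of 4. The part of these cells in the levels of Efnb1, Ephb6 and the other genes was not tested.

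The make-up of the family within a library needs no scaling between libraries, since each gene is given as a share of the summed Eph and ephrin level per kilobase of exon. In HFSCs Efnb2 held 23.6% and 18.7% of that sum in WT against 37.0% and 32.8% in Msx2-KO. Ephb6 held 20.2% and 24.0% in WT against 24.4% and 21.1% in Msx2-KO, so these were the most abundant ligand and the most abundant receptor in all 4 HFSC libraries. The share of Efna5 was 12.3% and 13.7% in WT against 3.99% and 4.73% in Msx2-KO. Summed over their class, A-class ephrins held 27.7% and 29.5% in WT against 16.6% and 15.0% in Msx2-KO, while B-class ephrins held 29.6% and 25.9% in WT against 44.0% and 39.7% in Msx2-KO. Ephrins as a whole held 57.3% and 55.4% in WT against 60.6% and 54.8% in Msx2-KO, so that the balance of ligands and receptors overlapped between the groups.

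In EpdSCs the receptors held 53.2% and 54.0% of the summed level per kilobase in WT but 4.76% and 14.1% in Msx2-KO. Ephb6 was the most abundant member of the family in WT, at 28.9% and 27.1%, and was at 0.00205% and 3.05% in Msx2-KO. Efnb1 held 7.71% and 9.72% in WT against 75.01% and 45.2% in Msx2-KO, where it was the most abundant member in both libraries. Shares add up to a whole, so a high share of Efnb1 lowers the share of every other gene. The 10 genes together held 83.3% and 85.3% of the family level in WT EpdSCs and 99.6% and 95.3% in Msx2-KO, and 87.8% to 92.4% in the HFSC libraries.

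**Figure D4:**
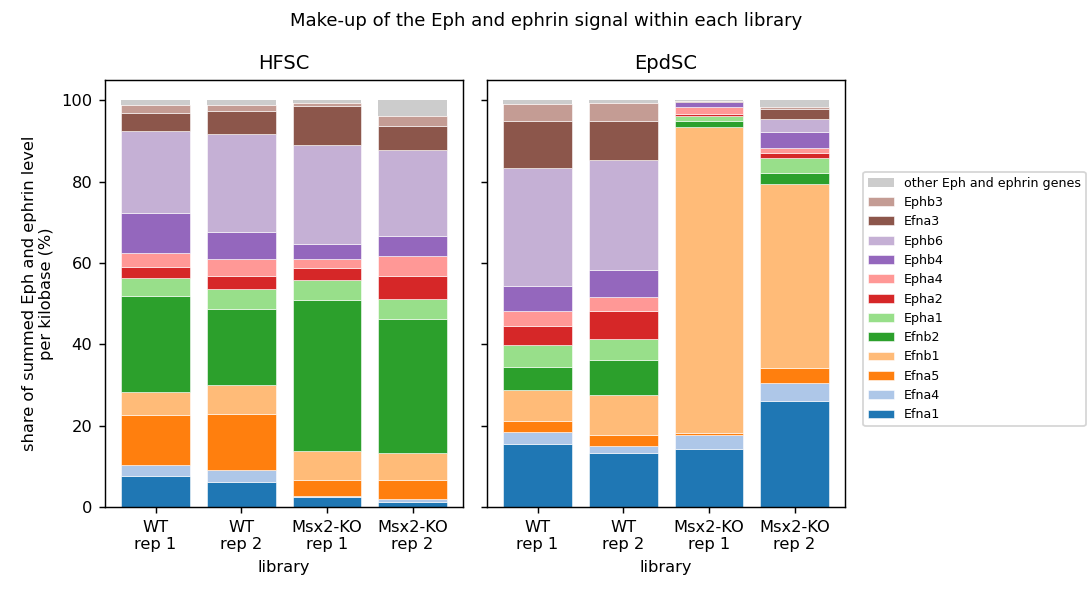
Share of each Eph and ephrin gene in the summed family level per kilobase of exon (%), with a stacked bar for each library of HFSCs and EpdSCs. Efnb1 takes 75.01% and 45.2% of the Msx2-KO EpdSC bars against 7.71% and 9.72% in WT, and Ephb6 takes 28.9% and 27.1% in WT EpdSCs.

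Ratios between family members within a library are free of scaling as well. Efna1, Efna3 and Efna4 lie within 66.3 kb on the minus strand of chromosome 3, from 89271733 to 89338028. The level per kilobase of Efna1 over that of Efna3 was 1.68 and 1.07 in WT HFSCs and 0.255 and 0.218 in Msx2-KO HFSCs. In EpdSCs the same ratio was 1.37 and 1.42 in WT against 58.0 and 10.7 in Msx2-KO. Levels of Efna4 over Efna3 were 0.595 and 0.516 in WT HFSCs, 0.0413 and 0.114 in Msx2-KO HFSCs, 0.248 and 0.176 in WT EpdSCs and 13.9 and 1.78 in Msx2-KO EpdSCs. Both ratios were thus below WT in the Msx2-KO HFSC libraries and above WT in the Msx2-KO EpdSC libraries. Exons of Efna4 share 168 bases, and those of Efna3 344 bases, with an antisense gene, which leaves their reads uncertain where counting ignored strand.

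For ligand and receptor pairs, the level per kilobase of Efnb2 over Ephb4 was 2.45 and 2.85 in WT HFSCs and 9.90 and 6.48 in Msx2-KO HFSCs. In EpdSCs it was 0.939 and 1.30 in WT against 1.14 and 0.641 in Msx2-KO, and the groups overlapped. Efna1 over Epha2 stood at 2.75 and 1.84 in WT HFSCs, 0.843 and 0.225 in Msx2-KO HFSCs, 3.32 and 2.00 in WT EpdSCs and 24.7 and 20.7 in Msx2-KO EpdSCs. Between the B-class ligands, Efnb1 over Efnb2 was 0.242 and 0.382 in WT HFSCs and 0.190 and 0.207 in Msx2-KO HFSCs, against 1.35 and 1.13 in WT EpdSCs and 47.7 and 17.3 in Msx2-KO EpdSCs. Efnb2 therefore exceeded Efnb1 per kilobase in each HFSC library, and Efnb1 exceeded Efnb2 in each EpdSC library.

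Of the other 12 family genes, 9 have a row in the HFSC table and 5 in the EpdSC table. Efna3, an A-class ligand, was at 23.6 and 32.1 CPM in WT HFSCs and 60.2 and 28.4 CPM in Msx2-KO HFSCs, and at 1263 and 1028 normalized counts in WT EpdSCs and 99.3 and 276 in Msx2-KO EpdSCs. Its groups overlapped in HFSCs and lay apart in EpdSCs, where limma's log2 fold change was -2.77 (Benjamini-Hochberg adjusted p = 0.0904). Ephb3, a receptor known from epithelial boundaries, was at 25.5 and 24.2 CPM in WT HFSCs and 10.3 and 32.9 CPM in Msx2-KO HFSCs. In EpdSCs Ephb3 was at 1294 and 1362 normalized counts in WT against 0 and 195 in Msx2-KO. The exact Poisson 95% upper limit for a count of 0 is 3.69 counts, and the WT mean was 283 times the value of that limit. Ephb3 and Ephb6 thus had their lowest EpdSC values in the same library, Msx2-KO replicate 1.

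Ephb2 was at 2.40 and 0 CPM in WT HFSCs and 19.4 and 14.6 CPM in Msx2-KO HFSCs, resting on 18 and 0 estimated counts against 178 and 69. It was at 77.99 and 105 normalized counts in WT EpdSCs and 47.1 and 89.0 in Msx2-KO EpdSCs, where the groups overlapped. Efna2 overlapped between groups in both tables, at 0.980 to 11.2 CPM in HFSCs and 40.8 to 148 normalized counts in EpdSCs. Epha3 was at 0 to 19.9 normalized counts in EpdSCs. Ephb1 was at 0 to 9.34 CPM in HFSCs, and Efnb3, Epha5, Epha7 and Epha10 had at most 16 estimated counts in any HFSC library and were not tested. Of the 5 other family genes tested in HFSCs, edgeR called 0 against 0.0% of all genes. At an unadjusted p under 0.05 stood 0 of them against 18.1%. Of the 5 tested in EpdSCs, limma called 0 against 9.35% of all genes, and 1 stood at an unadjusted p under 0.05 against 35.3%.

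Downstream of the receptors, 51 genes were looked up: exchange factors and GTPase-activating proteins, adaptors, kinases and phosphatases, proteins of shedding and turnover, and further signalling genes such as Rac1, Cdc42 and Pak1. In HFSCs 47 were tested and 0 were called by edgeR, against 0.0% of all genes. At an unadjusted p under 0.05 stood 4 of the 47 against 18.1% of all genes, and DESeq2 called 2 (Ngef and Vav3) against 4.78%. Groups did not overlap for 20 of the 47 (42.6%), 5 higher and 15 lower in Msx2-KO, a smaller share than the 51.1% of all genes, and the median log2 fold change was -0.21 beside -0.14. Among those with groups apart and a mean of at least 100 CPM in 1 group, the largest negative differences were those of Arhgef5, a guanine nucleotide exchange factor, and of the kinases Rock1 and Rock2, which act on the actomyosin cytoskeleton. Arhgef5 was at 227 and 327 CPM in WT against 146 and 198 CPM in Msx2-KO, Rock2 at 163 and 232 CPM against 116 and 137 CPM, and Rock1 at 159 and 242 CPM against 152 and 127 CPM. Both DESeq2 calls are exchange factors and were singled out after their values were seen. Ngef, the exchange factor ephexin that binds EphA4, was at 26.5 and 23.9 CPM in WT and 0 in both Msx2-KO libraries, and Vav3 was at 5.87 and 7.76 CPM in WT against 47.4 and 49.9 CPM in Msx2-KO.

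In EpdSCs 48 of the 51 effector genes were tested, and limma called 3, all higher in Msx2-KO. Of all genes 9.35% were called, 1.57% higher and 7.78% lower. Rac1, a small GTPase of membrane protrusion, was at 2351 and 2176 normalized counts in WT against 51809 and 28606 in Msx2-KO (log2 fold change 4.09 ± 0.55 SE, Benjamini-Hochberg adjusted p = 0.0357 in limma). Cdc42, a related GTPase, was at 1462 and 1368 in WT against 15811 and 15535 in Msx2-KO (3.47 ± 0.46, adjusted p = 0.0343 from limma). Pak1, a kinase that both GTPases activate, was at 402 and 335 in WT against 7204 and 5107 in Msx2-KO (4.04 ± 0.50, adjusted p = 0.0312 from limma). Each of these rises was larger than the spread between libraries, but the calls were lost with a replicate block and with edgeR on recovered counts (0 called in each). Cdc42 was also not called with equal library totals or with mitochondrial and ribosomal RNA genes left out, where 2 genes were called, and without either WT library 0 genes of the whole table were called. Rac1 and Cdc42 belong to a family of similar genes, among which estimated counts can divide shared reads.

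Other EpdSC effectors had groups apart without being called. Itsn1, an exchange factor that binds EphB2, was at 545 and 745 normalized counts in WT against 17.8 and 152 in Msx2-KO. Inppl1, the phosphatase SHIP2 that binds EphA2, was at 538 and 530 in WT against 56.0 and 83.1 in Msx2-KO (adjusted p = 0.0506 from limma). Arhgef16, an exchange factor that binds EphA2, was at 687 and 619 in WT against 115 and 103 in Msx2-KO. Of 13 exchange factors and GTPase-activating proteins tested, 2 were higher and 8 lower with groups apart. That is 76.9%, against 72.3% of all genes, 27.8% higher and 44.5% lower. Their median log2 fold change was -1.67, whereas it was 0.57 for adaptors, 0.38 for kinases and phosphatases and 0.27 for shedding and turnover. Over all 48, 16 were higher and 14 lower with groups apart (62.5% against 72.3% of all genes), and the median was 0.27 beside -0.64 over all genes.

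Set side by side, the 2 cell types gave opposite directions for 3 of the 4 genes whose groups lay apart in both. Of 13151 genes tested in both cell types, 4932 (37.5%) had groups apart in both, and 44.1% of these had opposite directions. Efna1 had a log2 fold change of -1.77 in HFSCs and 1.38 in EpdSCs, Efna4 of -2.42 and 1.78, and Efnb2 of 0.79 and -0.84. Ephb4 was lower in Msx2-KO in both, at -0.85 and -0.46. The tables were normalized separately and the WT ages differ between them, and no test was made across them.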

How the data were processed

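RNA-seq of sorted HFSCs and EpdSCs (8 libraries) was examined, grouped by the sample labels. Libraries were made at a sequencing company with a stranded total RNA kit, and reads were aligned by the authors with STAR 2.7.3a in Partek Flow to GRCm38/mm10 and assigned to GENCODE genes. Whether counting used strand is not given in the sources used here. For HFSCs the authors deposited expected (estimated) counts per gene, not normalized. For EpdSCs they deposited a normalized signal, that is, estimated counts multiplied by a factor particular to the library, with low genes already removed. A single count is worth 1.08 and 0.949 in the WT libraries, against 1.27 and 0.674 in Msx2-KO. The authors' tables of genotype comparisons (fold changes, p-values) were not used. Of the columns with values per library, 0 were left unmapped.

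Rounded HFSC counts passed filterByExpr for 14422 genes, to which the quasi-likelihood test of edgeR 4.0.16 was applied with TMM factors. The EpdSC signal was tested with limma 3.58.1 on log2(value + 1) over 16231 genes, where a fold change understates the change of low genes. P-values were adjusted by Benjamini-Hochberg over all genes tested. A gene was called at an adjusted p under 0.05 and a fold change over 2. Levels per kilobase used GENCODE exon lengths on GRCm38. Promoter sequences came from RefSeq. R 4.3.3 and Python 3.11.15 with matplotlib 3.10.9 were used. The HFSC and EpdSC tests were also run on simulated tables holding 200 genes with an 8-fold change. At a dispersion (spread between replicates) of 0.05, each test called all 200. At a dispersion of 0.5, the HFSC test called 1 of the 200 and the EpdSC test 0. The common dispersion of the HFSC libraries was 0.823, so 0 calls by edgeR in HFSCs cannot show that genes were unchanged. Intervals and limits of counts cover counting error only.

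The genes and lists were chosen with earlier results of these data known. Named genes were the 10 genes, every other family gene with a value, and the 3 largest rises and falls among called effectors or, with fewer called, among those with groups apart and a mean of at least 100 in 1 group. Alternatives were DESeq2 1.42.0, limma-trend (prior count 3), further scalings, filters and pseudocounts (0.1 and 10), leaving out mitochondrial and ribosomal RNA genes, a replicate block and leaving out each library. EdgeR on recovered EpdSC counts was added after seeing the data. A summary of 1 group within the effector list is not reported here.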

Additional observations from a re-analysis of the deposited data

Results flagged for a closer look

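In HFSCs and EpdSCs, 3 genes had groups that lay apart in opposite directions. Of 13151 genes tested in both cell types, 37.5% had groups apart in both, and 44.1% of those had opposite directions. Efna1 was lower in both Msx2-KO HFSC libraries than in both WT libraries (log2 fold change -1.77) and higher in both Msx2-KO EpdSC libraries (1.38). For Efna4 the log2 fold changes were -2.42 in HFSCs and 1.78 in EpdSCs. Efnb2 was higher in Msx2-KO HFSCs (0.79) and lower in Msx2-KO EpdSCs (-0.84), but its HFSC value was -0.066 after scaling to library totals, and its nearest EpdSC libraries were 1775.3 in WT and 1772.6 in Msx2-KO. The difference between the cell types was not tested for any of the 3, since the tables were normalized separately.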

How the results depend on the processing

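The number of the 10 genes called in HFSCs was 0 with edgeR and 1 with DESeq2 or limma-trend. In EpdSCs it was 0 at every setting with all libraries and 0 to 4 with 1 left out, namely 4 without Msx2-KO replicate 1 (Efnb1, Epha2, Epha4, Ephb6) and 4 without Msx2-KO replicate 2 (Efna1, Efna4, Efnb1, Ephb6). With 1 library left out, the remaining lone library is assumed to vary like the other group. Counts of calls from those fits are therefore given only as a record, and nothing is concluded from them. The HFSC numbers given above for the 10 genes cover fits with all libraries only. They cannot be set against the EpdSC range with 1 library left out. Called effectors in HFSCs were 2 with DESeq2, 3 with limma-trend, 1 with library totals, 1 with a replicate block (Ngef) and 0 to 19 with 1 library left out. Called effectors in EpdSCs were 7 with a pseudocount of 10, 0 with a replicate block, 0 with edgeR on recovered counts and 0 to 26 with 1 library left out. Over all genes, HFSC calls were 0 with edgeR, 690 with DESeq2, 1407 with limma-trend, 51 with library totals and 231 with the block, and EpdSC calls were 1518 with limma, 1271 with the block and 0 with edgeR.

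Replicate numbers did not pair the libraries (correlation of deviations -0.03 in HFSCs and -0.02 in EpdSCs), and the block changed no call of the 10 genes. With the block the HFSC log2 fold change turned to -0.083 for Efna2 and -1.23 for Ephb1.

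Scaling HFSC libraries to their totals turned Efnb1 to -0.62, Efnb2 to -0.066, Epha1 to -0.65, Epha2 to -0.36, Ephb6 to -0.67, Efna2 to -0.14 and Efna3 to -0.067, with the median of all genes at -1.002 in place of -0.14. With 1 library left out, HFSC values ran from -0.085 to 0.34 for Efnb1 (-0.071 without WT replicate 1 and -0.085 without Msx2-KO replicate 1), from -0.23 to 0.35 for Ephb6 (-0.088 without WT replicate 1 and -0.23 without Msx2-KO replicate 1), and, turning without Msx2-KO replicate 1, from -0.048 to 0.31 for Epha1, -0.55 to 0.14 for Epha4 and -1.27 to 0.38 for Ephb3. Turning without Msx2-KO replicate 2, they ran from -1.85 to 1.64 for Efna2 and -6.51 to 2.40 for Ephb1. EpdSC values ran from -0.83 to 0.52 for Efna5 (turning without Msx2-KO replicate 1, and 0.17 with edgeR on recovered counts), -1.61 to 0.61 for Epha4 and -0.13 to 1.39 for Efna2 (both turning without Msx2-KO replicate 2) and -1.05 to 3.33 for Epha3 (turning without WT replicate 1). The causes were not tested. Low counts limit Efna4, Ephb1 and Ephb2 in HFSCs and Ephb6 and Ephb3 in Msx2-KO EpdSC replicate 1.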
